A study of Homo sapiens with 9 samples.

Results

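ZEB1 and CTCF binding was examined around 9 genes that hold epithelial cells together and give them an apical and a basal side: CDH1, CTNNA1, OCLN, CLDN3, CLDN4, CLDN7, EPCAM, CRB3 and LLGL2. A peak was counted for a gene when its summit, the position of highest enrichment, lay within 20 kb of the gene's start site on hg19. This rule found 59 of the 47426 peaks in 5 deposited lists. ZEB1 was precipitated in a delta-Repeat clone (7 of 2160 peaks), a WT clone (8 of 1515), RKO cells (18 of 7193) and MiaPaCa2 cells (14 of 4804), and CTCF in MiaPaCa2 cells (12 of 31754). MiaPaCa2 is a human pancreatic ductal adenocarcinoma line and RKO a human colon carcinoma line, and both were used unmodified and untreated in these samples. The delta-Repeat clone is a single clonal MiaPaCa2 line, grown after electroporation with plasmids that carried Cas9 nickase and pairs of guide RNAs against the repeats that precede the MIR200A and MIR200B genes. The WT clone is a single clonal line too, from MiaPaCa2 cells electroporated with Cas9 nickase plasmids, and served as its control. All ZEB1 samples used antibody SC-25388, in lot K1615 for both clones, lot G2315 for RKO and lot H1513 for MiaPaCa2, and CTCF was precipitated with a rabbit antiserum. Each condition had 1 sample with a peak list, and the input samples came from lines other than the clones, so no difference between lists can be set against a spread between cultures. The lists hold no expression values, so the identity of the lines was not checked by marker genes.

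Epithelial cells are joined by adherens junctions, built from E-cadherin and the catenins, and sealed by tight junctions, built from occludin and the claudins. Polarity proteins of the Crumbs and Scribble groups keep these junctions near the apical surface. ZEB1 is a DNA-binding repressor with clusters of zinc fingers that lowers transcription of such genes as cells turn mesenchymal, and it is known to bind E-boxes with the letters CACCTG, which read CAGGTG on the other strand. CTCF is a zinc-finger protein found at insulators and at the borders of chromatin loops.

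The promoters of 4 of these genes are shown because they span the range of what was found. ZEB1 peaks ranked highest at OCLN and CTNNA1, and the E-box was most frequent at CRB3 and CLDN7. Each line gives the 250 bases before a RefSeq start site of build GRCh38.p14, in the direction of the gene, with every CAGGTG or CACCTG in capitals. The OCLN sequence is chr5:69492297-69492546 on the plus strand, that of CTNNA1 is chr5:138753175-138753424 on the plus strand, that of CRB3 is chr19:6464021-6464270 on the plus strand, and that of CLDN7 is chr17:7262479-7262728 on the minus strand.
OCLN: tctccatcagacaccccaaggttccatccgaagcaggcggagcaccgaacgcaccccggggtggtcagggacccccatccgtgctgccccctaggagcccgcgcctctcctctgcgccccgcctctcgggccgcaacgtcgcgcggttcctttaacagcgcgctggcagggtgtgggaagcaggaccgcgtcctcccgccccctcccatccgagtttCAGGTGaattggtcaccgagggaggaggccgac
CTNNA1: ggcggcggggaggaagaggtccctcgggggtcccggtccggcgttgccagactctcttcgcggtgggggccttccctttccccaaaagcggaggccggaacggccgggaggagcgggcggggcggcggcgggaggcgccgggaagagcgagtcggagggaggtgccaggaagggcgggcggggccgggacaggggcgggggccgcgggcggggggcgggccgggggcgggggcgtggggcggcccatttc
CRB3: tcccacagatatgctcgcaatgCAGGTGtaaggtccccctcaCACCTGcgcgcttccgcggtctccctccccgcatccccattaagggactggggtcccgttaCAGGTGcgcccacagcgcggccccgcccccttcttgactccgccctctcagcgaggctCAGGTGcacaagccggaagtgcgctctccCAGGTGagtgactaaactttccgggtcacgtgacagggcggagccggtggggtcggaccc
CLDN7: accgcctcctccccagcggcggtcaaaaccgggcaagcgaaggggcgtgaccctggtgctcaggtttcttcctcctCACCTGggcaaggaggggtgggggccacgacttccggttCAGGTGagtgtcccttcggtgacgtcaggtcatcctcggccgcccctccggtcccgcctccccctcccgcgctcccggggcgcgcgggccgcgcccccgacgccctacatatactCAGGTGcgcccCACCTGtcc

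The CRB3 promoter held 5 E-boxes, whose first bases lay at -228, -208, -147, -89 and -60 from the start site. The CLDN7 promoter held 4, at -174, -135, -20 and -9. The OCLN promoter held 1, at -33, and that of CTNNA1 none. Among all 35116 promoters of this length in the table, 17.5% held at least 1 such E-box on either strand, 0.122% at least 4 and 0.074% at least 5, and several of these entries belong to the same gene. The table matched 6 of the 9 genes with 11 entries, and 4 of these entries had an E-box. The others with an entry, CLDN3 and CLDN4, had none in this window. A second OCLN entry, which starts further into the gene, had 1 at -133. The 3 other CTNNA1 entries and the other CLDN7 entry had none. CDH1, EPCAM and LLGL2 were not matched. These sequences are of another build than the peaks, so no summit was placed on them, and a match of letters is a description, not a site of binding. Their RefSeq start sites were not matched to those used for the peaks. Distances of E-boxes and of summits may therefore count from different bases, at OCLN as at the other genes. By the distances used for the peaks, the strongest ZEB1 site of each gene shown had its summits outside the printed stretch. These lay at 522 to 583 bp for OCLN, -487 to -373 bp for CTNNA1, -1942 to -1822 bp for CRB3 and 47 to 200 bp for CLDN7. A weaker RKO peak of CRB3, at -93 bp, had its summit within that distance. The sequences at the summits were not examined for E-boxes.

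ZEB1 peaks lay around 7 of the 9 genes. Genes with at least 1 peak numbered 5 in the delta-Repeat clone, 6 in the WT clone, 7 in RKO and 6 in MiaPaCa2 for ZEB1, and 6 for CTCF. Of all 40 kb stretches laid end to end over the genome, the share that held a peak was 2.51% for the delta-Repeat clone, 1.79% for the WT clone, 6.43% for RKO, 4.93% for MiaPaCa2 and 28.2% for CTCF. These stretches include gene-poor and unassembled sequence, and a share over the start sites of other genes was not computed. A ZEB1 summit lay within 1 kb of the start site for 3 genes in the delta-Repeat clone, 4 in the WT clone, 6 in RKO and 4 in MiaPaCa2. OCLN, CTNNA1 and LLGL2 had such a summit in all 4 ZEB1 lists. The share of all start sites with a ZEB1 summit this close was not computed, so these counts are description only.

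**Figure D1:**
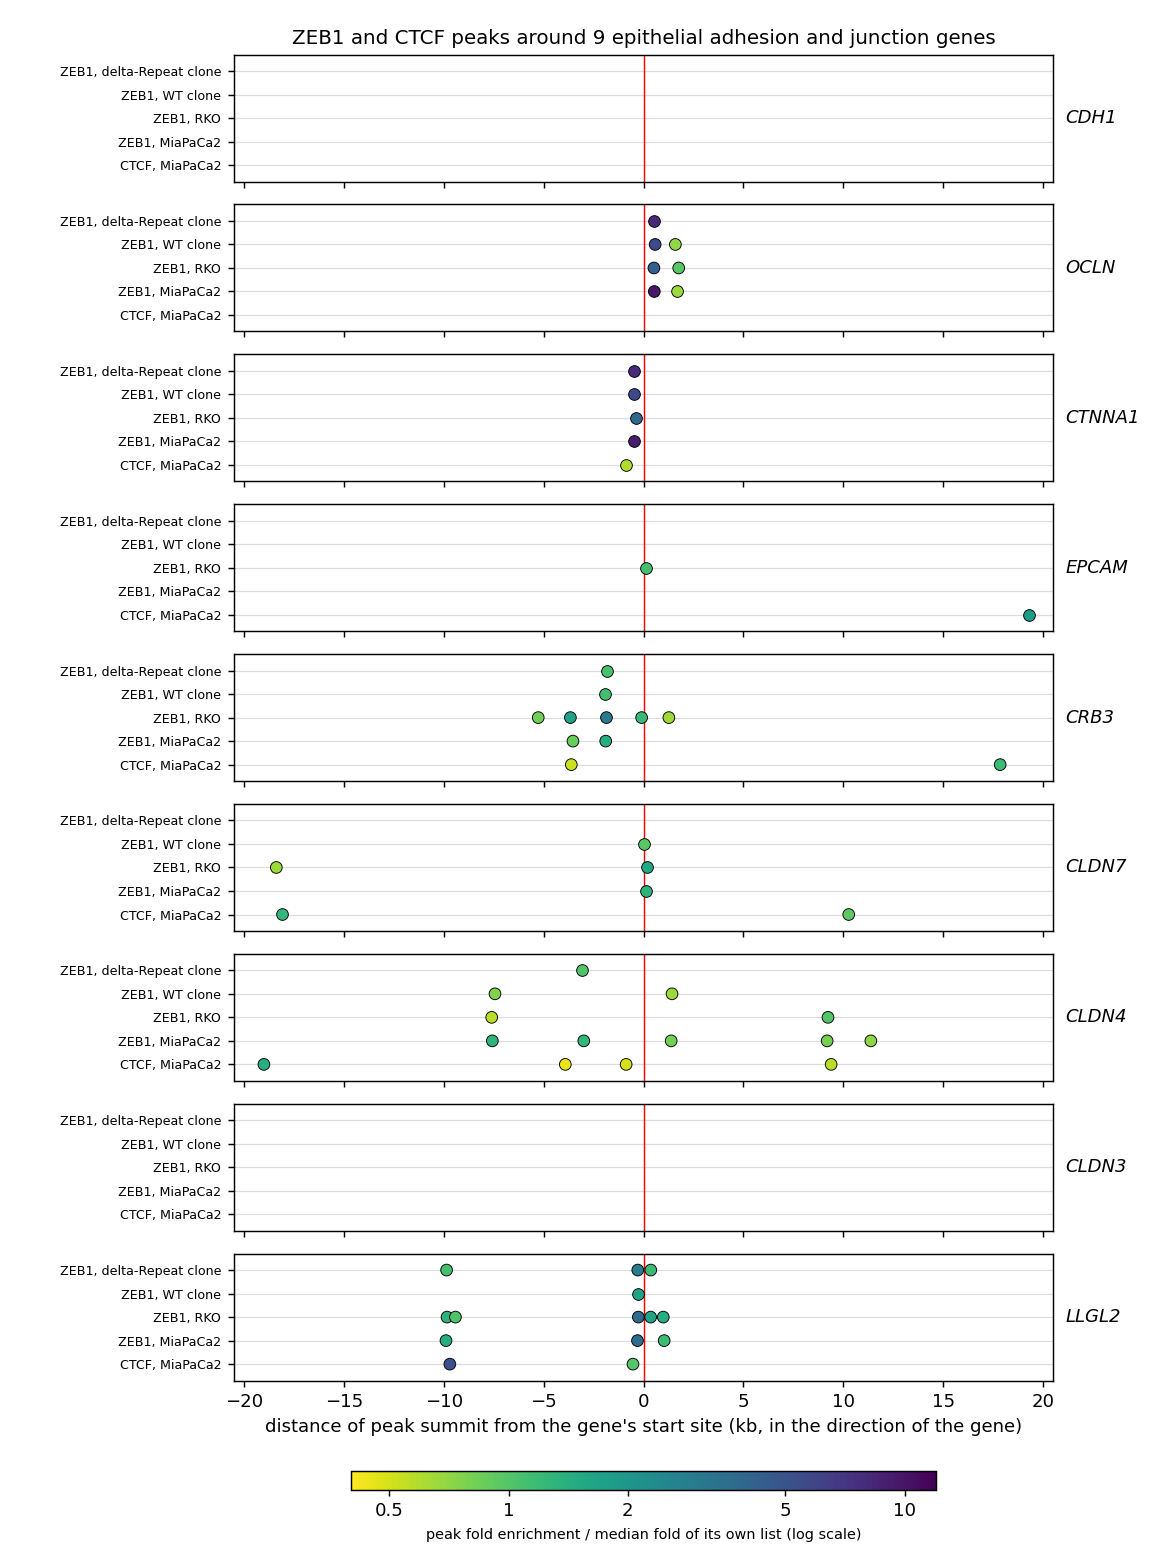
Summits of the ZEB1 and CTCF peaks within 20 kb of the start sites of 9 genes. The horizontal axis is the distance in kb in the direction of the gene, the red line is the start site, each row is 1 list, and the colour of a point is the fold enrichment of the peak divided by the median fold of its own list, on a log scale. OCLN and CTNNA1 have the darkest points close to the start site, LLGL2 and CRB3 have several points in RKO, and the panels of CDH1 and CLDN3 are empty.

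The ZEB1 peaks joined into 20 sites, a site being a place where peaks of the lists overlap by at least 1 bp. A site was in all 4 ZEB1 lists in 4 cases, at OCLN, CTNNA1, CRB3 and LLGL2, while over the whole genome 9.84% of joined ZEB1 regions were in all 4. A further 4 sites were in 3 lists, 6 in 2 lists and 6 in 1 list. Of these last, 5 were in RKO and 1 in MiaPaCa2, and none was in a clone alone. The share of all joined regions found in a single list was not computed. Over the whole lists 86.6% of delta-Repeat clone peaks, 95.2% of WT clone peaks and 39.1% of RKO peaks overlapped a MiaPaCa2 peak. The counts of sites in a single list therefore show nothing particular to these genes. Read depth is unknown from the lists, so a site that a list lacks may be below what that library could show.

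CDH1 encodes E-cadherin, the adhesion molecule of adherens junctions and a well known target of ZEB1. No peak of any of the 5 lists had its summit within 20 kb of its start site (chromosome 16, 68771195). The nearest ZEB1 summits lay upstream, at 216 kb in the delta-Repeat clone, 853 kb in the WT clone, 207 kb in RKO and 217 kb in MiaPaCa2. The delta-Repeat and MiaPaCa2 peaks overlapped each other, at 68554477 to 68555006 in the delta-Repeat clone and 68554444 to 68555022 in MiaPaCa2. The nearest CTCF summit lay 32.8 kb upstream and had a fold of 19.2.

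CTNNA1 encodes alpha-catenin, which links the cadherin complex to the actin skeleton. It had a single ZEB1 site just upstream of its start site, on chromosome 5 from 138088118 to 138089048. The fold at this site, a linear ratio over the peak caller's background, was 56.4 in the delta-Repeat clone, 42.1 in the WT clone, 23.1 in RKO and 60.6 in MiaPaCa2. The −log10 q, the peak caller's significance after adjustment, was 230 in the delta-Repeat clone, 168 in the WT clone, 62.1 in RKO and 273 in MiaPaCa2. By fold the peak ranked 3 in the delta-Repeat clone, 7 in the WT clone, 133 in RKO and 7 in MiaPaCa2, each in its own list. It therefore stood among the few strongest peaks of every list from MiaPaCa2 cells and within the top 1.85% of the RKO list. Summits lay 487, 458, 373 and 465 bp before the start site in the delta-Repeat clone, the WT clone, RKO and MiaPaCa2, and the peaks ended before the start site in all 4 lists.

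OCLN encodes occludin, a membrane protein of tight junctions. Its main ZEB1 site, on chromosome 5 from 68787896 to 68789395, covered the start site in all 4 lists, with summits 539 bp downstream in the delta-Repeat clone, 583 bp in the WT clone, 522 bp in RKO and 541 bp in MiaPaCa2. The fold was 57.5 in the delta-Repeat clone, 41.5 in the WT clone, 25.9 in RKO and 64.1 in MiaPaCa2. These peaks ranked 2 in the delta-Repeat clone, 8 in the WT clone, 95 in RKO and 4 in MiaPaCa2. As at CTNNA1, the RKO peak held a lower place in its list than the peaks of the MiaPaCa2 lists did in theirs. The peak was also broad, at 1500 bp in the delta-Repeat clone, 1090 bp in the WT clone, 1101 bp in RKO and 1396 bp in MiaPaCa2, where the median width of a list lay between 333 and 379 bp for ZEB1. The CTNNA1 peaks, of similar fold, also exceeded the medians, at 811, 736, 770 and 928 bp in the same order of lists. Widths were not compared among all peaks of like fold. A second, weaker OCLN site from 68789580 to 68790062 had folds of 5.27 in the WT clone, 5.82 in RKO and 4.34 in MiaPaCa2 and was not in the delta-Repeat list. Its summits lay 1595 bp downstream of the start site in the WT clone, 1763 bp in RKO and 1704 bp in MiaPaCa2. No CTCF summit lay within 50 kb of the OCLN start site.

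The claudins are the strand-forming membrane proteins of tight junctions, and the 3 examined differed in ZEB1 binding. CLDN7 had a ZEB1 site over its start site (chromosome 17, 7165495 to 7166293), with folds of 7.21 in the WT clone, 9.49 in RKO and 8.64 in MiaPaCa2. These peaks ranked 821 of 1515 in the WT clone, 1125 of 7193 in RKO and 1302 of 4804 in MiaPaCa2, so they were of middle strength in the WT clone and in the stronger part of the lists of unmodified cells. The summits lay 47 bp into the gene in the WT clone, 200 bp in RKO and 122 bp in MiaPaCa2, counted from a start site that the rule gives as a whole kb. The delta-Repeat list had no peak within 20 kb. A second CLDN7 site, 18.4 kb upstream, was in the RKO list with a fold of 3.98 and overlapped a CTCF peak of MiaPaCa2 cells.

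CLDN4 had 5 weak ZEB1 sites, and no list held them all except that of MiaPaCa2. In MiaPaCa2 their summits lay 7566 and 2988 bp upstream and 1385, 9193 and 11381 bp downstream of the start site, with folds of 8.66, 8.40, 5.38, 5.29 and 4.66. In the delta-Repeat clone the site 3.1 kb upstream had a peak of fold 7.17. The WT clone had the site 7.4 kb upstream with a fold of 5.67 and the site 1.4 kb downstream with a fold of 5.01. Both clones thus had CLDN4 peaks at different places, all of them among the MiaPaCa2 sites. RKO had peaks 7.6 kb upstream with a fold of 3.43 and 9.2 kb downstream with a fold of 6.04. Except for the first 2 MiaPaCa2 peaks and the delta-Repeat peak, which had rank 1053 of 2160, each of these peaks had a fold below the median of its own list. CLDN3, whose start site lies 60.6 kb from that of CLDN4, had no ZEB1 or CTCF summit within 20 kb. The nearest ZEB1 summit lay 51.3 kb downstream in the delta-Repeat clone, and 31.2 kb downstream in the WT clone, 31.1 kb in RKO and 31.1 kb in MiaPaCa2.

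EPCAM encodes an epithelial adhesion molecule of the cell surface. Its ZEB1 site, on chromosome 2 from 47596232 to 47596454, covered the start site and was in the RKO list alone, with a fold of 6.67, a −log10 q of 8.78 and rank 2756 of 7193. In the other lists the nearest ZEB1 summits lay 192 kb upstream in the delta-Repeat clone, 427 kb in the WT clone and 192 kb in MiaPaCa2. A peak of this strength lies close to the middle of the RKO list, and whether a deeper MiaPaCa2 library would show one was not tested.

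CRB3 encodes a short membrane protein of the Crumbs complex at the apical surface. Its site in all 4 ZEB1 lists lay about 1.9 kb upstream, on chromosome 19 from 6461916 to 6462737, on the side of its neighbour SLC25A23 in the RefSeq gene order. The fold there was 7.46 in the delta-Repeat clone, 8.34 in the WT clone, 18.1 in RKO and 9.40 in MiaPaCa2. The peak ranked 970 of 2160 in the delta-Repeat clone, 575 of 1515 in the WT clone, 229 of 7193 in RKO and 1080 of 4804 in MiaPaCa2. RKO was thus the list in which CRB3 stood highest, while at OCLN and CTNNA1 it was the list with the lowest place. Places in lists of different lengths show no change by themselves. RKO also had 4 further CRB3 peaks, with summits 5270, 3660 and 93 bp upstream and 1270 bp downstream and folds of 5.03, 10.4, 7.30 and 3.91. Of these, MiaPaCa2 had the site near 3.6 kb upstream, with a fold of 5.66, and the clones had none. The RKO peak 93 bp upstream covered the start site used for the peaks. The CRB3 promoter with 5 E-boxes shown above counts from a RefSeq start site that was not matched to this one.

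LLGL2 encodes a basolateral polarity protein of the Scribble group. Its strongest ZEB1 site, on chromosome 17 from 73521026 to 73521616, had folds of 20.4 in the delta-Repeat clone, 12.3 in the WT clone, 22.6 in RKO and 24.2 in MiaPaCa2. It ranked 96 of 2160 in the delta-Repeat clone, 256 of 1515 in the WT clone, 142 of 7193 in RKO and 134 of 4804 in MiaPaCa2. The summits of all 4 lists fell within 42 bp, between 301 and 259 bp upstream of the start site, and the neighbour on that side in the RefSeq gene order is TSEN54. A site with its summit 366 bp downstream in the delta-Repeat clone (fold 8.50) was also found 359 bp downstream in RKO, with a fold of 9.90, and was the only clone peak of these genes that the MiaPaCa2 list lacked. Another site, about 1.0 kb downstream, had folds of 8.88 in RKO and 7.62 in MiaPaCa2. The last LLGL2 site lay 9.4 to 9.9 kb upstream, with folds of 7.65 in the delta-Repeat clone, 8.18 and 6.25 for the 2 RKO peaks there and 9.43 in MiaPaCa2. In RKO, CRB3 and LLGL2 each had 5 peaks, and 0.112% of 40 kb stretches of the genome held that many RKO peaks or more. These were the windows with the most RKO peaks of the 9, and 2 of the LLGL2 peaks fell at 1 site. The stretches are not centred on start sites and include gene-poor sequence, so the share is description only.

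**Figure D2:**
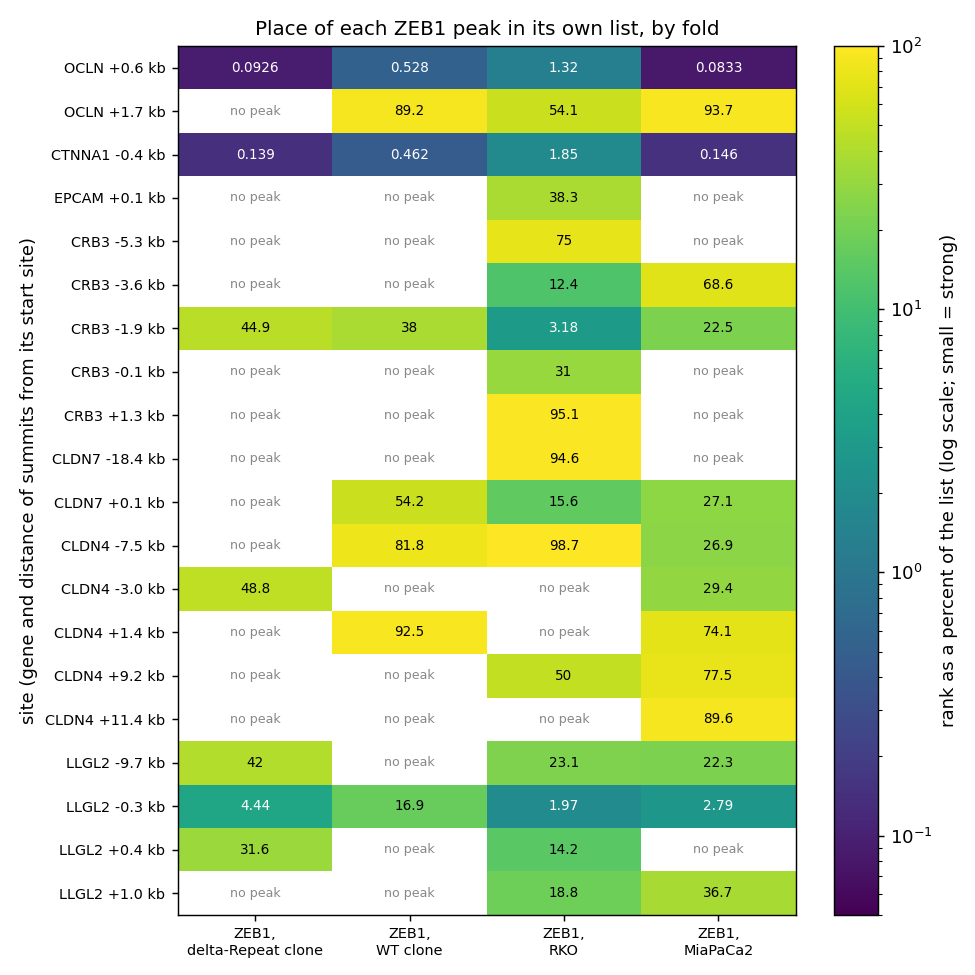
Place of the ZEB1 peak at each of the 20 sites within its own list. Rows are sites by gene and distance from the start site, columns are the 4 ZEB1 lists, and the number and colour give the rank by fold as a percent of the list (log colour scale, small means strong). OCLN at +0.6 kb and CTNNA1 at -0.4 kb are within the top 1.85% of every list, LLGL2 at -0.3 kb within the top 16.9%, and most other sites lack a peak in at least 1 list.

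The 4 sites present in every ZEB1 list had nearly the same summits in each. The summits of the lists spanned 61 bp at OCLN, 114 bp at CTNNA1, 120 bp at CRB3 and 42 bp at LLGL2. Set against the median fold of its own list, the OCLN peak was 8.15 times as high in the delta-Repeat clone, 5.56 times in the WT clone, 4.29 times in RKO and 9.81 times in MiaPaCa2. The CRB3 peak was 1.06 times as high as the list median in the delta-Repeat clone, 1.12 times in the WT clone, 3.0 times in RKO and 1.44 times in MiaPaCa2. The order OCLN, CTNNA1, LLGL2, CRB3 by fold held in the delta-Repeat clone, RKO and MiaPaCa2. In the WT clone CTNNA1 and OCLN changed places, at 42.1 and 41.5. These folds come from the authors' peak caller and depend on the depth and control of each sample, so their sizes are given as descriptions of each list and were not compared between lists.

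**Figure D3:**
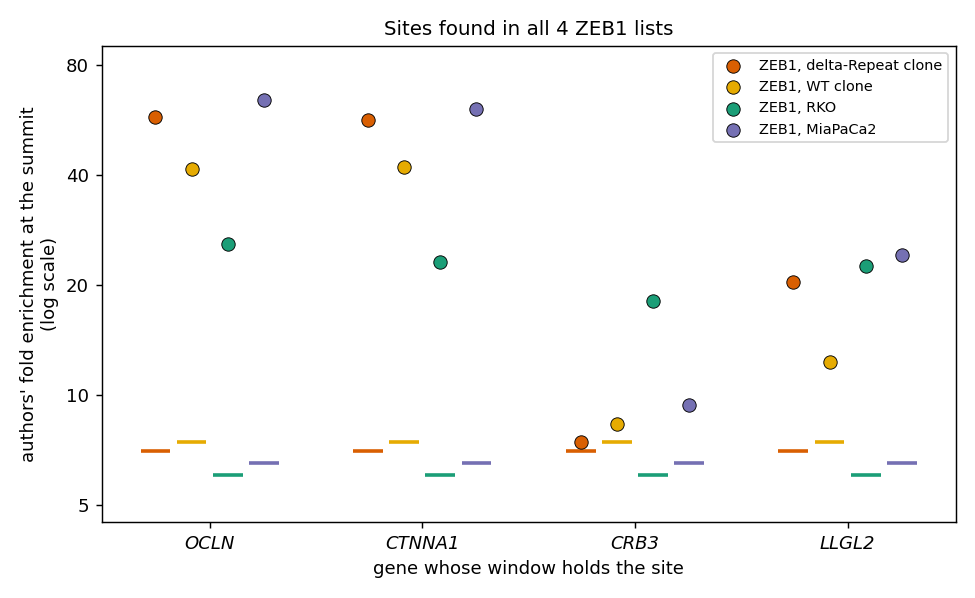
Fold enrichment at the 4 sites that all ZEB1 lists share. The horizontal axis gives the gene, the vertical axis the authors' fold at the summit on a log scale, points are single samples without error, and the short lines mark the median fold of each whole list (7.06, 7.46, 6.04 and 6.53 in the order of the legend). OCLN and CTNNA1 stand far above the medians in the MiaPaCa2 lists, and the RKO points of all 4 genes lie between 18.1 and 25.9.

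The clones were compared to see what became of ZEB1 binding at these genes when the repeats upstream of the miR-200 genes had been targeted. The 4 sites above were shared, and each clone had further sites that the other lacked, with folds of at most 8.50. In the delta-Repeat clone 4 of 7 window peaks overlapped a WT clone peak (57.1%, exact Clopper-Pearson 95% interval 18.4 to 90.1), against 51.3% over the whole list. In the WT clone 4 of 8 overlapped a delta-Repeat clone peak (50.0%, interval 15.7 to 84.3), against 73.4% over the whole list. Both whole-list shares lie within these intervals, which cover counting error only. The intervals treat peaks of the same gene as independent and are too wide to tell the windows from the lists. The 3 delta-Repeat peaks without a partner lay at CLDN4 (fold 7.17) and LLGL2 (folds 7.65 and 8.50). The 4 WT clone peaks without a partner lay at OCLN (fold 5.27), CLDN7 (7.21) and CLDN4 (5.67 and 5.01), and were the 4 weakest of its 8. Above a stricter threshold, with a fold of at least 5 and a −log10 q of at least 10, 4 of the 5 remaining peaks of the delta-Repeat clone had a partner in the WT clone, and all 4 remaining WT clone peaks were matched in turn, against 55.8% and 75.3% over the whole lists at that threshold. With so few peaks left, these counts show nothing particular to the genes.

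Nearly all clone peaks at these genes were also in the list of the line they came from. In the delta-Repeat clone 6 of 7 overlapped a MiaPaCa2 peak (85.7%, interval 42.1 to 99.6, against 86.6% over the list), and in the WT clone 8 of 8 did (100%, interval 63.1 to 100, against 95.2% over the list). These counts are close to those of the whole lists, and the intervals again treat peaks of the same gene as independent.

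The comparison of the colon with the pancreatic line asked how far ZEB1 takes the same places in both. Of the RKO window peaks 12 of 18 overlapped a MiaPaCa2 peak (66.7%, interval 41.0 to 86.7), against 39.1% over the whole RKO list. Of the MiaPaCa2 window peaks 11 of 14 overlapped an RKO peak (78.6%, interval 49.2 to 95.3), against 57.4% over the whole list. The 39.1% lies just below its interval and the 57.4% inside, but the intervals treat peaks of the same gene as independent. Both RKO peaks furthest upstream of LLGL2 overlapped the same MiaPaCa2 peak. Counted by site, 11 of the 17 RKO sites were also in MiaPaCa2. When an overlap of 50% of both peaks was required, 7 of 18 RKO peaks (38.9%) and 7 of 14 MiaPaCa2 peaks (50.0%) were shared, against 28.0% and 41.9% over the lists. With both lists shortened to 1515 peaks, 5 of 9 RKO peaks (55.6%) and 5 of 7 MiaPaCa2 peaks (71.4%) were shared, against 53.9% and 53.5% over the lists, so for RKO the share in the windows was close to that of its list. With summits within 100 bp, 10 of 18 RKO peaks (55.6%) and 10 of 14 MiaPaCa2 peaks (71.4%) were shared, against 24.7% and 36.9% over the lists. Above the stricter threshold 7 of 10 RKO peaks (70.0%) and 7 of 9 MiaPaCa2 peaks (77.8%) were, against 41.7% and 60.3%. The genes were not drawn at random and no test was made of these differences. The 6 RKO peaks without a partner lay at EPCAM, CRB3, CLDN7 and LLGL2, with folds from 3.91 to 9.90, and the 3 MiaPaCa2 peaks without a partner all lay at CLDN4.

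CTCF and ZEB1 shared some of these places in MiaPaCa2 cells. Of the 14 ZEB1 window peaks 5 overlapped a CTCF peak (35.7%, interval 12.8 to 64.9), against 20.2% over the whole ZEB1 list, which lies within the interval. This wide interval treats peaks of the same gene as independent, so it cannot tell the windows from the list. The 5 overlapping peaks lay at CTNNA1, CRB3, CLDN4 and LLGL2, with 2 at LLGL2. With summits within 100 bp, 1 of 14 was left, that 3.5 kb upstream of CRB3, whose summit lay 84 bp from the CTCF summit. That share of 7.14% stood beside 7.06% over the whole ZEB1 list under the same rule. When an overlap of 50% of both peaks was required, 4 of 14 were left (28.6%), against 8.53% over the list. With the ZEB1 list shortened to 1515 peaks 3 of 7 overlapped (42.9%, against 23.0%), and above the stricter threshold 2 of 9 (22.2%, against 19.3%). No test was made of these differences. The ZEB1 peak 9887 bp upstream of LLGL2, with a fold of 9.43, overlapped the strongest CTCF peak of these windows, which had a fold of 57.0 and rank 36 of 31754 and a summit 193 bp away. The CTNNA1 peak, with a ZEB1 fold of 60.6, overlapped a CTCF peak with a fold of 6.39 and rank 26301, whose summit lay 430 bp away. The OCLN peak overlapped none. CTCF summits within 1 kb of a start site were found at CTNNA1, CLDN4 and LLGL2, and none within 20 kb at CDH1, OCLN or CLDN3. The CTCF peak this close to CLDN4 was weak, with a fold of 5.38 and rank 29240 of 31754. That close to LLGL2 had a fold of 10.7 and rank 16045, near the middle of the list.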

How the data were processed

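Peak lists of 5 of the 9 samples were used, and the 4 input samples were not analysed here. Per the submitters' processing notes the authors used the aligner Bowtie2 2.2.6, SAMtools, and the peak caller MACS2 2.1.0.20150731. The builds they name are hg19 and GRCh37. The sources used here do not say whether libraries were pooled or which control served which list. The deposited fold enrichment is a linear ratio at the summit, and the deposited p and q columns hold −log10 values. The deposited score column is 10 times the −log10 q as a whole number and was not used.

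The authors' folds and ranks describe peaks within their own list. Start sites came with the definition of the gene set, and those of CLDN7, CLDN3 and LLGL2 are given there as round numbers, so their distances are approximate. Directions follow the strands in the RefSeq promoter table, and textbook strands for CDH1, EPCAM and LLGL2. Overlap needed 1 bp unless stated, and the code, tested on simulated peaks, found the same overlaps as bedtools 2.31.1. Scripts ran under Python 3.11.15 with scipy 1.17.1, pandas 2.3.3, matplotlib 3.10.9 and numpy 2.4.6. All 9 genes are named and every peak in a window may be given. Genes and lists were chosen with earlier results of these data known. Exon and intron positions and a planned list of other junction genes were not analysed, since no hg19 annotation was used.

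With 1 sample per condition no test between conditions was made. Read depth is unknown. The alternatives tried were windows of 10 and 50 kb, a stricter threshold, lists of equal length, 2 stricter rules of overlap and ranking by −log10 q.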

Additional observations from a re-analysis of the deposited data

How the results depend on the processing

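No paired analysis was possible because every condition had 1 sample. Under a window of 10 kb the CTCF window peaks numbered 7, and under one of 50 kb 29. With the stricter threshold the ZEB1 window peaks numbered 4 in the WT clone, 10 in RKO and 9 in MiaPaCa2, and 100% of those of the WT clone (4 of 4) were in the delta-Repeat list, against 75.3% over the whole list. With each ZEB1 list shortened to 1515 peaks of highest −log10 q, 9 RKO and 7 MiaPaCa2 window peaks were left and 62.5% of WT clone window peaks (5 of 8) were in the MiaPaCa2 list, against 72.3% over the whole list. Requiring 50% of both peaks gave 38.9% of RKO window peaks in MiaPaCa2 (28.0% over the list), and summits within 100 bp gave 7.14% of MiaPaCa2 window peaks at CTCF (7.06% over the list). By construction the windows, the threshold and the list lengths change which peaks are counted, and the 50% rule can only remove matches. The other 70 planned summary values stayed within 1.5 times the count or within the 95% interval of the share, and so did 10 values for peaks with any part in the window, a rule chosen after seeing the data. Ranked by −log10 q, 25 of 30 strongest peaks of a gene kept their rank within 1.5 times, and the 5 others moved to rank 57 for OCLN and 204 for CTNNA1 in RKO, 3 for CTNNA1 in MiaPaCa2, and 70 for LLGL2 and 4673 for CLDN7 in the CTCF list. The threshold of 20 kb lay between a CTCF peak of EPCAM at 19.3 kb (fold 19.8) and an RKO ZEB1 peak of CLDN7 at 20.9 kb (fold 6.90). Since read depth is unknown, a missing peak may be a peak below detection.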

Other observations

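Between 20 and 50 kb from the start sites, ZEB1 peaks were found at 5 of the 9 genes. The share of the genome with a peak at this span was not computed, so the count shows nothing particular to these genes. The site nearest to CLDN3, about 31 kb downstream, was in 3 of the 4 ZEB1 lists, with folds of 9.21 in the WT clone (rank 467 of 1515), 13.3 in RKO (rank 495 of 7193) and 7.66 in MiaPaCa2 (rank 1729 of 4804), and not in the delta-Repeat list. In the RefSeq gene order the neighbour of CLDN3 on that side is ABHD11. LLGL2 had a weak ZEB1 site 24.3 kb downstream, with folds of 4.40 in the delta-Repeat clone and 4.11 in MiaPaCa2. The remaining ZEB1 peaks at this distance, at EPCAM, CLDN7 and CLDN4, were in the RKO list alone. CDH1 had no ZEB1 peak within 50 kb in any list.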
